A study of Mus musculus with 18 samples.

Results

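Saa1, Saa2, Lrg1, Dmbt1, Alpk1, Mbl2, Duox2, Duoxa2, Nos2 and A2ml1, 10 genes of inducible epithelial defence and of the acute phase response, were followed through 18 RNA sequencing libraries of sorted mouse ileal epithelium. They were found by their symbols in the GENCODE M21 annotation of the GRCm38 build, and all 10 had 1 row among the 47729 genes of each count table. The genes were picked by name and function, and also because they peak in single libraries of this series. Their levels and fold changes are therefore given as a description, with no test of their own. The libraries came from ileal epithelial cells of female mice and formed 3 groups of 6, pregnant, pseudopregnant and virgin. Pseudopregnancy is a luteal state without embryos. All animals were on RM1 chow during the experiment, and the labels give no strain, age, genotype, day of pregnancy, way of inducing pseudopregnancy, sorting marker or batch. Whether each replicate was its own animal is also not stated.

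The intestinal epithelium keeps a set of defence genes at a low level and raises them on contact with bacteria or inflammatory cytokines. Interleukin 22 acts through the receptor chain Il22ra1 and the transcription factor STAT3. Bacterial sugars and interleukin 17 act through NF-kB. In the mouse ileum, attaching bacteria are known to induce serum amyloid A, the dual oxidase Duox2, Nos2 and the Reg3 lectins.

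Libraries held 24.9 M to 37.3 M counts (median 31.5 M). In CPM, the count scaled to a common library size with TMM factors, Epcam, a gene of epithelial cells, was at 1639 to 3589 and the leukocyte gene Ptprc at 0.198 to 0.638 CPM. A low-count filter left 14675 genes, among them 9 of the 10 genes described here. Saa2 was below it, with at least 10 counts in 1 library. In edgeR's quasi-likelihood test with Benjamini-Hochberg adjustment over these genes, 0 (0%) passed an adjusted p of 0.05 in each of the 3 comparisons, and so did 0 of the 9. An unadjusted p under 0.05 was held by 540 genes (3.68%) for pregnant against virgin, 1375 (9.37%) for pseudopregnant against virgin and 345 (2.35%) for pregnant against pseudopregnant libraries. Limma-voom called 0 in each (528, 1107 and 247 at an unadjusted p under 0.05). DESeq2 called 5, 0 and 0 (627, 1504 and 389).

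Compared per length of annotated exons, Dmbt1 was the most abundant of the 10, with a median over the 18 libraries of 63.3 CPM per kb. Duoxa2 (29.8), Nos2 (21.9) and Duox2 (19.2 CPM per kb) came next. Mbl2 (2.18), Saa1 (1.99) and Alpk1 (0.906 CPM per kb) were about an order of magnitude lower. Lrg1 (0.143), A2ml1 (0.0601) and Saa2 (0.0176 CPM per kb) were close to the limit of detection. The exon lengths of Saa1 and Saa2, 2478 and 2518 bases, count transcripts with retained introns and cover nearly the whole gene. This lowers both values on this scale, so the places of these 2 genes in the order depend on the annotation. Neighbours in this order overlapped in their ranges over the libraries, with the exception of Duox2 and Mbl2.

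The most conspicuous feature was 1 library. Pseudopregnant replicate 4 was the highest of the 18 libraries for 9 of the 10 genes, all but Mbl2, where it ranked 14. Among all 14675 tested genes this library was the highest for 8.55%. Because the genes were picked for such peaks, the difference between these shares is not evidence about them. For 6 of the 10 (Saa1, Saa2, Lrg1, Dmbt1, Duox2 and A2ml1) it held at least 2 times the level of the second highest library. This was true of 0.266% of all tested genes. Saa2, below the filter, is in neither share over all tested genes, and without it 5 genes met the 2-fold rule. Here too the genes were picked for such peaks. In 4 genes, Dmbt1, Alpk1, Duox2 and A2ml1, the second highest library was pseudopregnant replicate 5. The share of all tested genes with that library in second place was not computed. It was the highest library for 16.9% of them, more than any other library, so the 4 genes are a description only.

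**Figure D1:**
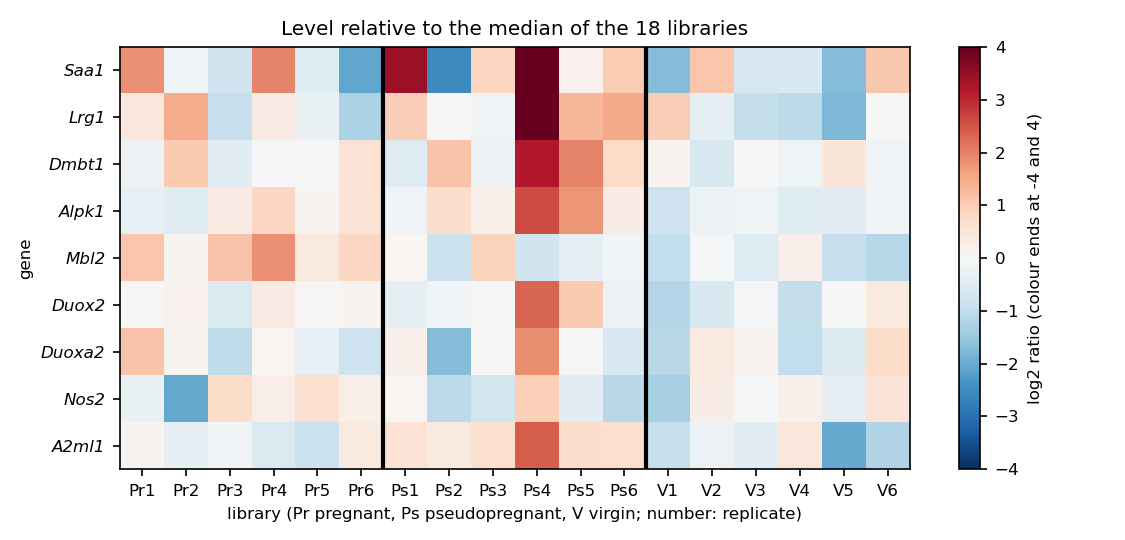
Level of 9 genes (rows) in each of the 18 libraries (columns), as the log2 ratio of CPM to the median of the 18 libraries, with the colour ending at -4 and 4; Saa2, at 0 in several libraries, is left out. The column of pseudopregnant replicate 4 is above the median for every gene shown except Mbl2, whose highest column is pregnant replicate 4.

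Saa1 encodes serum amyloid A, a lipid- and retinol-binding protein secreted in the acute phase (chromosome 7, 46740497 to 46742980, minus strand, GRCm38). Its lowest, median and highest levels were 1.17, 3.95 and 19.2 CPM in pregnant libraries, 0.854, 9.46 and 243 CPM in pseudopregnant, and 1.48, 3.15 and 10.7 CPM in virgin libraries. The 3 groups overlapped, and the pseudopregnant libraries reached both lower and higher than those of the other groups. Pseudopregnant replicate 4 stood 4.62 times above the second highest library, pseudopregnant replicate 1 (52.7 CPM), and 56.0 times above the median of the other 17. The pseudopregnant group also held the lowest library of all, replicate 2. Outside replicate 4 its coefficient of variation was still 135%, against 99.0% in pregnant and 85.1% in virgin libraries.

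Saa2, a close paralog, lies on the opposite strand of the same cluster (chromosome 7, 46751790 to 46754313, plus strand), and the start sites of the pair in RefSeq are 8853 bases apart. It had 40 counts in pseudopregnant replicate 4, against 0 to 6 counts in pregnant, 0 to 2 in the other 5 pseudopregnant and 0 to 2 in virgin libraries. In that replicate Saa2 made up 0.474% of the counts of the pair (40 of 8436, 95% Clopper-Pearson interval 0.339 to 0.645%, counting error only). In the other 17 libraries its share was 0 to 4%, from at most 6 counts. The coding sequences of the paralogs are identical at 348 of 366 bases (95.1%). The 60 coding bases where they differ most are positions 90 to 149 from the start codon. This least alike stretch is shown with the differing bases in capitals.
Saa1: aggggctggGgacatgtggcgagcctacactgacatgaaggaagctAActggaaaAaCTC
Saa2: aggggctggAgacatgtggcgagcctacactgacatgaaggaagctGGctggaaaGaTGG
Of the 50-base windows of the coding transcript of Saa1, 13.2% occur without a difference in a Saa2 transcript, of the 75-base windows 4.67% and of the 100-base windows 0 of 510. With no read length stated, how many of the few Saa2 counts are reads of Saa1 was not tested.

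The sequences before both genes are equally alike. Of the 250 bases before the RefSeq start sites, 249 could be aligned and 238 of them (95.6%) were identical. The stretch from 200 to 61 bases before each start is shown because it holds every C/EBP motif (TTNNGNAA, either strand) found there, in capitals. C/EBP factors are classical activators of acute phase genes. The sequences are from RefSeq (GRCm38.p6), Saa1 from chr7:46743041-46743180 on the minus strand and Saa2 from chr7:46751633-46751772 on the plus strand.
Saa1: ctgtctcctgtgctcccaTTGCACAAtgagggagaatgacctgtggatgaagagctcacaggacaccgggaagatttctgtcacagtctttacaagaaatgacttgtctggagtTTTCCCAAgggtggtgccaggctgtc
Saa2: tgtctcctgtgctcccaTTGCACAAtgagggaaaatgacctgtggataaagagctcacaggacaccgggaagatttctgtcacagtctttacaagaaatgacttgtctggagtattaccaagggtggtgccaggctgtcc
The upstream motif is shared, and the one nearer the start is present in Saa1 alone. This motif occurs in 36.8% of the 32851 mouse promoter windows of the same length, so a match here is a description and no site.

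Lrg1, a secreted leucine-rich glycoprotein of the acute phase (chromosome 17, 56119678 to 56122001, minus strand), showed the sharpest peak. It stood at 19.3 CPM (666 counts) in pseudopregnant replicate 4, and at 0.0580 to 0.572 CPM in the other 17 libraries, from 2 to 18 counts each. The ratio to the second highest library was 33.7. Its lowest, median and highest levels were 0.0833, 0.211 and 0.565 CPM in pregnant libraries, 0.182, 0.399 and 0.572 CPM in the 5 other pseudopregnant libraries, and 0.0580, 0.131 and 0.400 CPM in virgin libraries. Without replicate 4 the groups overlapped, at counts too low to order them.

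Duox2 and Duoxa2 form a functional pair. Duox2 encodes the dual oxidase that releases hydrogen peroxide at the apical surface, and Duoxa2 the factor that brings it there in active form. They lie head to head on chromosome 2 (Duox2 at 122279247 to 122298449, minus strand, Duoxa2 at 122298900 to 122302885, plus strand), with RefSeq start sites 673 bases apart. Duoxa2 shares 682 exonic bases with Duoxa1 on the other strand. Since the strand setting of the counting is not given, reads of that stretch cannot be assigned with certainty. Duoxa1 had at most 3 counts in any library. The values of Duoxa2 per kb rest on all its 1592 exonic bases, the shared ones included. The part of the overlap in these values and in ratios built on them was not tested.

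Duox2 ran from 86.4 over a median of 136 to 162 CPM in pregnant, from 99.9 over 124 to 657 CPM in pseudopregnant, and from 57.5 over 103 to 169.8 CPM in virgin libraries. The highest value was that of pseudopregnant replicate 4, followed by replicate 5 at 267 CPM. The other 4 pseudopregnant libraries, at 99.9 to 132 CPM, lay within the range of the virgin libraries. Duoxa2 ran from 23.5 over 44.0 to 105 CPM in pregnant, from 14.4 over 47.5 to 170.4 CPM in pseudopregnant, and from 21.8 over 42.3 to 78.1 CPM in virgin libraries. Its second highest library was pregnant replicate 1 and its lowest pseudopregnant replicate 2, so the pair did not share its order outside the common peak.

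The ratio of Duox2 to Duoxa2, both per kb of exon, was 0.289 to 1.23 in pregnant (median 0.793), 0.432 to 1.92 in pseudopregnant (0.881) and 0.314 to 0.949 in virgin libraries (0.587). In pseudopregnant replicate 4, where both peaked, the ratio was 0.906, within the range of the other 5 pseudopregnant libraries and below 4 of the other 17. The extremes were pseudopregnant replicate 2 at 1.92 and pregnant replicate 1 at 0.289.

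Nos2, the inducible nitric oxide synthase (chromosome 11, 78920787 to 78960254, plus strand), was the gene with the weakest peak. It ran from 23.5 over 114 to 161 CPM in pregnant, from 45.1 over 64.7 to 186 CPM in pseudopregnant, and from 38.7 over 101 to 139 CPM in virgin libraries. Pseudopregnant replicate 4 was 1.15 times the second highest library, pregnant replicate 3. The other 5 pseudopregnant libraries, at 45.1 to 102 CPM, were all below the pregnant median, and 4 of them below the virgin median.

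Dmbt1 encodes a large secreted glycoprotein with scavenger receptor domains that binds bacteria at mucosal surfaces (chromosome 7, 131032053 to 131121630, plus strand). It ran from 333 over 435 to 919 CPM in pregnant, from 314 over 883 to 4089 CPM in pseudopregnant, and from 287 over 426 to 624 CPM in virgin libraries. Pseudopregnant replicates 4 (4089 CPM), 5 (1757 CPM) and 2 (984 CPM) were the 3 highest of the 18 libraries, while replicates 1 and 3 (314 and 376 CPM) were below the virgin median. The pseudopregnant group was thus spread over 13.0-fold, the pregnant over 2.76-fold and the virgin group over 2.17-fold.

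Mbl2 encodes a mannose-binding lectin, which starts the lectin pathway of complement (chromosome 19, 30232942 to 30239687, plus strand). It alone among the 10 was highest in a pregnant library, replicate 4 at 8.50 CPM. It ran from 2.54 over 4.69 to 8.50 CPM in pregnant, from 1.31 over 2.01 to 4.54 CPM in pseudopregnant, and from 1.08 over 1.45 to 2.74 CPM in virgin libraries. All 6 pregnant libraries were above the virgin median and above the pseudopregnant median, and the ranges still overlapped. Pseudopregnant replicate 4, the peak library of the other genes, stood at 1.36 CPM, close to the bottom of its group.

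Alpk1 encodes a kinase that senses the bacterial sugar ADP-heptose and signals through Tifa and Traf6 to NF-kB (chromosome 3, 127670310 to 127780527, minus strand). It ran from 4.41 over 7.27 to 11.1 CPM in pregnant, from 5.66 over 8.87 to 38.2 CPM in pseudopregnant, and from 3.51 over 4.96 to 5.75 CPM in virgin libraries. The virgin group was narrow, with a coefficient of variation of 17.5%, and 4 of 6 pregnant and 5 of 6 pseudopregnant libraries were above its highest value. The promoter table held 8 of the 10 genes, all but Dmbt1 and Nos2, and among the 8 Alpk1 was the one with a STAT motif (TTCNNNGAA) and the one with an NF-kB motif. The stretch from 140 to 90 bases before its RefSeq start (GRCm38.p6, chr3:127780617-127780667, minus strand) is printed for that reason.
Alpk1: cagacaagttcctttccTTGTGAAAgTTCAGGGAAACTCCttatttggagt
The capitals mark a C/EBP motif at -123 to -116, and after the next base the STAT motif at -114 to -106 together with the NF-kB motif at -110 to -101, which overlaps it. A STAT motif occurs in 7.02% and an NF-kB motif in 3.90% of all promoter windows of 250 bases, searched on both strands.

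A2ml1 is a relative of the protease inhibitor alpha-2-macroglobulin (chromosome 6, 128539821 to 128581608, minus strand). Its levels were very low, from 0.254 over 0.390 to 0.611 CPM in pregnant, from 0.598 over 0.733 to 2.52 CPM in pseudopregnant, and from 0.116 over 0.296 to 0.645 CPM in virgin libraries. Without replicate 4 the other 5 pseudopregnant libraries kept to 0.598 to 0.759 CPM (19 to 27 counts). Their coefficient of variation was 9.09%, against 74.0% with replicate 4 included. It is not comparable with the values of groups from which no library was left out. At 19 to 27 counts counting error is large, so the low value is not evidence of steady expression. The range of these 5 libraries met the top of the pregnant and virgin ranges in 1 library each.

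**Figure D2:**
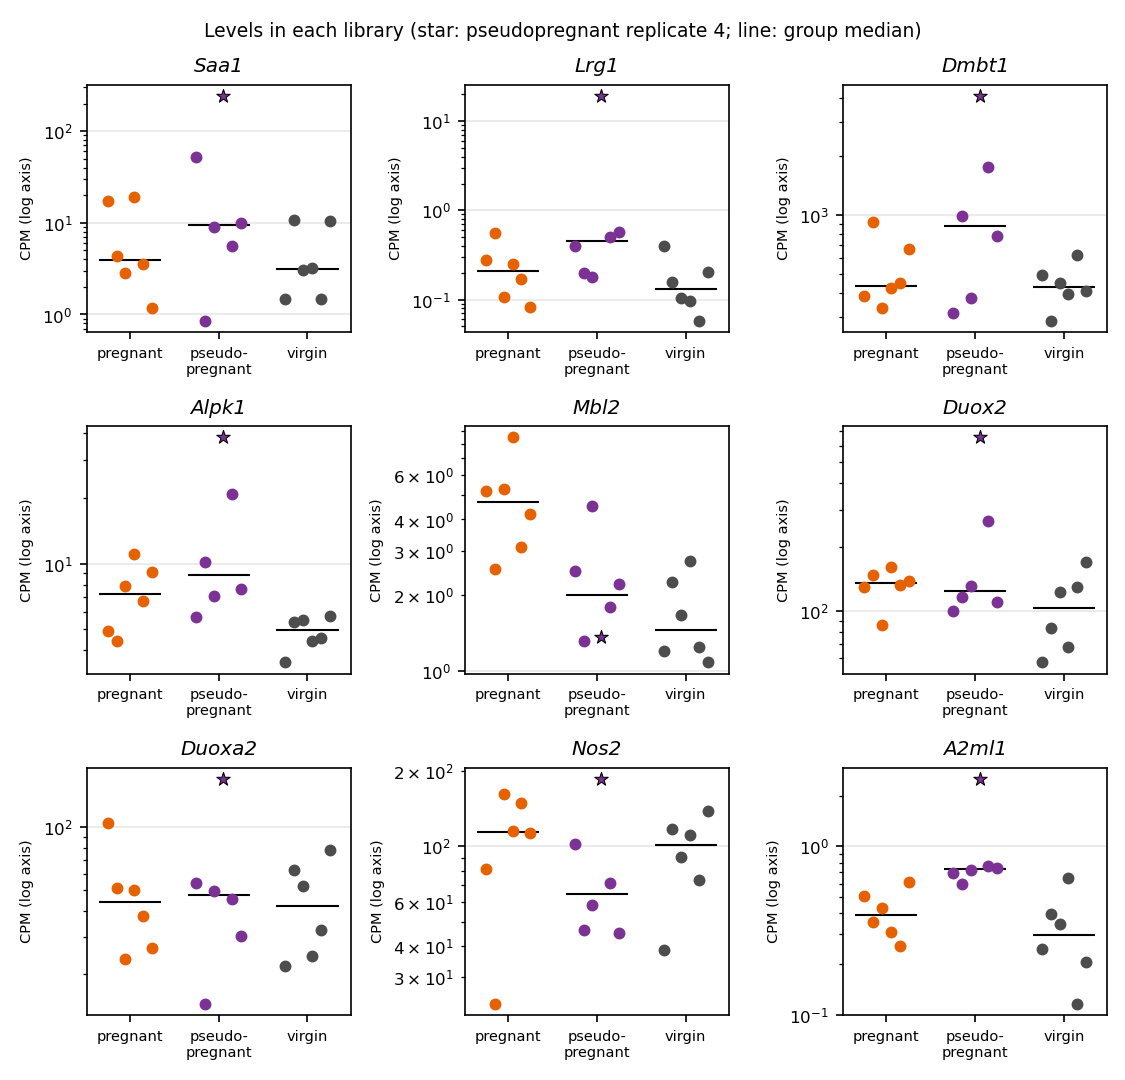
CPM (log axis, a separate scale in each panel) of 9 genes in the 6 libraries of each group, with 1 point per library, the group median as a line and pseudopregnant replicate 4 as a star. The star is the top point for 8 of the genes and lies near the bottom of its group for Mbl2.

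The comparison of pseudopregnant with virgin libraries asks what differs in this luteal state without embryos. Of the 9 tested genes 8 had a positive fold change (median 1.63 on the log2 scale), while over all tested genes 50.6% were positive (median 0.00). The largest were Lrg1 at 4.35 (standard error, SE, 1.14), Saa1 at 3.41 (SE 1.05), A2ml1 at 1.66 (SE 0.41), Dmbt1 at 1.65 (SE 0.48) and Alpk1 at 1.63 (SE 0.39). Duox2 followed at 1.13 (SE 0.40), and Mbl2 and Duoxa2 stood at 0.43 each (SE 0.34 and 0.48). Nos2 was negative, at -0.16 (SE 0.40).

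Without pseudopregnant replicate 4 the median of these 9 was 0.93, and 7 were positive. Lrg1 stood at 1.10 (SE 0.49), Saa1 at 1.63 (SE 0.83), A2ml1 at 1.13 (SE 0.32), Alpk1 at 1.09 (SE 0.30), Dmbt1 at 0.93 (SE 0.37) and Duox2 at 0.46 (SE 0.28). Duoxa2 turned to -0.22 (SE 0.41) and Nos2 stood at -0.55 (SE 0.38). Mbl2, which had no peak there, was at 0.54 (SE 0.35). The groups overlapped in all 10 genes, with that replicate and, in the 9 tested, without it. Of the markers, 6 of 10 for absorptive enterocytes were positive (median 0.18), 6 of 10 for proliferation (0.07), 2 of 7 for goblet cells (-0.24), 0 of 6 for Paneth cells (-0.34) and 0 of 8 for dissociation stress (-0.31), also with 0 called and not tested for their part. Over all tested genes the groups did not overlap in 0.0681%, and without that replicate in 0.102%.

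Between pregnant and virgin libraries the luteal state and the presence of embryos differ together and cannot be told apart. Here the 9 tested genes were all positive, with a median of 0.34. The groups overlapped in all 10 genes, and did not in 0.0681% of all tested genes. Over all tested genes 48.5% were positive (median -0.01). Mbl2 was the largest at 1.51 (SE 0.34), with mean levels of 4.80 ± 2.12 CPM in pregnant libraries against 1.70 ± 0.667 CPM in virgin ones (SD, n = 6 each). Saa1 stood at 0.68 (SE 0.98), Alpk1 at 0.60 (SE 0.38), Lrg1 at 0.45 (SE 1.50), A2ml1 and Duox2 at 0.34 each (SE 0.46 and 0.40), Dmbt1 at 0.26 (SE 0.47), Nos2 at 0.17 (SE 0.40) and Duoxa2 at 0.12 (SE 0.48). Each of these 8 lay within 2 SE of 0 in this fit, whose spread is shared by all 18 libraries, pseudopregnant replicate 4 included. Without that replicate Alpk1 stood at 0.60 (SE 0.29), and with only the 12 libraries compared at 0.61 (SE 0.22), beyond 2 SE both times. Lrg1 stood at 0.45 (SE 0.51) without that replicate. The others stayed within 2 SE. This cut-off describes genes picked on these libraries and is no test. The adjusted p of Alpk1 in this comparison was 0.485 or more in edgeR and in every other setting. Over all tested genes an unadjusted p under 0.05 was held by 3.63% without that replicate. With only the 12 libraries it was held by 521 of 14281. In the same comparison 9 of 10 absorptive enterocyte markers were positive (median 0.44), as were 0 of 10 proliferation (-0.22), 0 of 7 goblet (-0.29), 0 of 6 Paneth (-0.10) and 0 of 8 dissociation stress markers (-0.32), with 0 called, and their part in the values of the 9 genes was not tested. DESeq2 called Mbl2 (adjusted p = 0.0376, among 5 genes or 0.0341% of those tested), and over all settings its adjusted p ranged from 0.0376 to 1. In edgeR it was 0.891. Mbl2 was picked with this contrast known, so the call is no independent support.

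Between pregnant and pseudopregnant libraries 7 of 9 were negative (median -1.02, and -0.49 without pseudopregnant replicate 4). Lrg1 stood at -3.90 (SE 1.09), or -0.66 without that replicate, Saa1 at -2.73 (SE 1.01), or -0.95, and Dmbt1 at -1.39 (SE 0.47), or -0.67. A2ml1 was at -1.31 (SE 0.40), or -0.78, and Alpk1 at -1.02 (SE 0.38), or -0.49. Duox2 was at -0.79 (SE 0.40), or -0.13, and Duoxa2 at -0.31 (SE 0.48), or 0.34. The positive ones were Mbl2 at 1.08 (SE 0.33), or 0.97, and Nos2 at 0.34 (SE 0.40), or 0.73. The groups did not overlap in 0.0273% of all tested genes, with or without that replicate, and overlapped in all 10 described here. Here 10 of 10 absorptive enterocyte markers were positive (median 0.30), 2 of 10 proliferation (-0.17), 2 of 7 goblet (-0.28), 4 of 6 Paneth (0.29) and 4 of 8 dissociation stress markers (-0.02), again with 0 called and not tested for their part. The 3 comparisons share their groups, so their fold changes are not independent of each other.

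**Figure D3:**
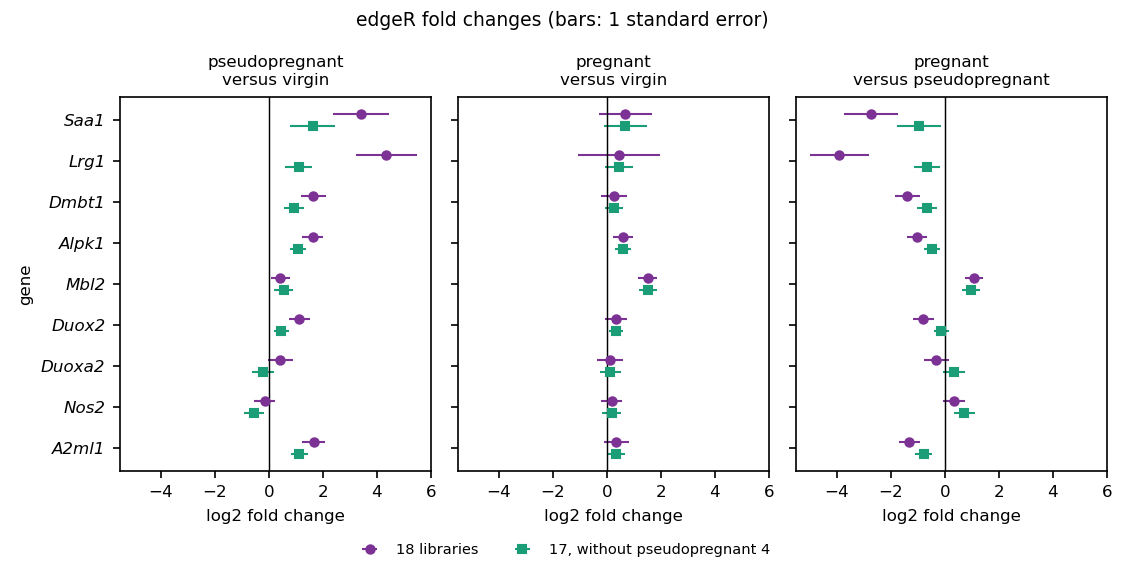
Log2 fold changes from edgeR (horizontal axis, bars of 1 standard error) of 9 genes in the 3 comparisons, with all 18 libraries (circles) and with 17, leaving out pseudopregnant replicate 4 (squares). In the comparisons that use the pseudopregnant group the squares lie closer to 0 than the circles for Lrg1, Saa1, Dmbt1, Alpk1, Duox2 and A2ml1, and Duoxa2 changes sign.

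Spread also differed between the groups. Dixon's gap ratio, at its 95% critical value, set 1 library apart from the other 5 in 1 of the 10 genes in the pregnant, 7 in the pseudopregnant and 0 in the virgin group. Over all tested genes this was so in 8.23% of pregnant, 4.91% of pseudopregnant and 9.72% of virgin groups, and the genes were picked for such peaks. Saa2, 1 of the 7, was below the filter and is in none of the shares over all tested genes given here. The coefficient of variation was highest in the pseudopregnant group for all 10 genes, as it was for 45.4% of all tested genes. Without replicate 4 it remained highest there for 5 of the 10 (Saa1, Dmbt1, Alpk1, Mbl2 and Duox2), with 46.4% of all tested genes.

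The 9 tested genes did not vary as 1 block from library to library. Over the 36 pairs Spearman's rho across the 18 libraries ran from -0.44 to 0.82 (median 0.20), and 27 pairs were positive. Over the 17 without pseudopregnant replicate 4 it ran from -0.58 to 0.78 (median 0.18), and 26 were positive. These values describe libraries that share their groups, and no test was made of them. The strongest pair was Saa1 with Duoxa2 (rho 0.82, and 0.78 without that replicate), ahead of Duox2 with Duoxa2 (0.45 and 0.35). Alpk1 with Duox2 reached 0.53 and 0.45, and Dmbt1 with Duox2 0.50 and 0.40. Dmbt1 went the other way from Nos2 (-0.33 and -0.58) and from Saa1 (-0.27 and -0.50).

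**Figure D4:**
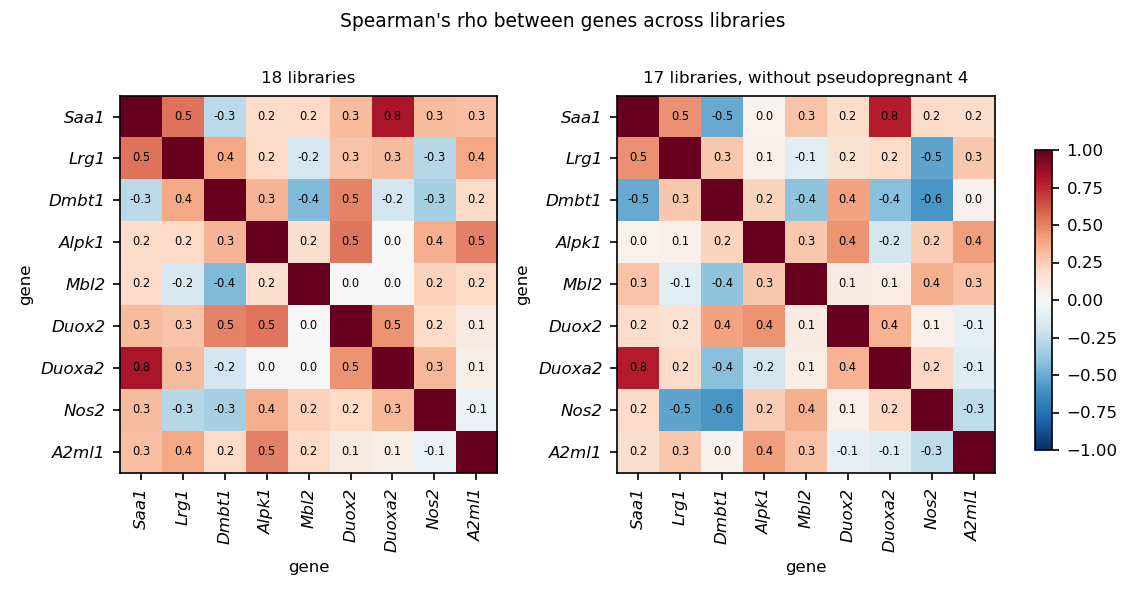
Spearman's rho between each pair of 9 genes across 18 libraries (left) and across 17 without pseudopregnant replicate 4 (right), coloured from -1 to 1. Off the diagonal, the square of Saa1 and Duoxa2 is the darkest in both panels, at 0.82 and 0.78, while Dmbt1 is negative with Nos2, Saa1, Mbl2 and Duoxa2.

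Outside the 10, the genes whose pattern was most like each of them were sought among 11138 annotated genes with a mean of at least 1 CPM, by Spearman's rho over the 18 libraries and again over 17. For Saa1 they were Reg3b, an antibacterial lectin (0.89 and 0.87), and Tat, tyrosine aminotransferase (0.89 and 0.87), with Reg3g next over the 18 (0.84). For Duoxa2 the first over the 18 was Sprr2a1, a small proline-rich protein of stressed epithelium (0.84 and 0.83), whose paralog Sprr2a3 came second (0.83) and may share its reads. Over the 17 it was Cnot11 (0.86). For Duox2 they were Kitl, the stem cell factor (0.90 and 0.88), and Yipf6 (0.87 and 0.85). Dmbt1 was closest to Clint1 and Mlec over the 18 (0.95 each, and 0.94 each over the 17), and to Kat14 over the 17 (0.96). Alpk1 was closest to Plce1, Adgra3 and Ceacam1 (0.91 each, and 0.90, 0.89 and 0.89).

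Mbl2 was closest to the clock gene Nr1d2 (0.86 and 0.88) and to Sectm1a (0.85 both times). Nos2 was closest to Tnfrsf21, a death receptor (0.77 and 0.87), and over the 17 Cish, an inhibitor of cytokine signalling, came second (0.84). Lrg1 and A2ml1, the tested genes with the fewest counts, reached 0.73 with Chid1 (0.71 over the 17) and 0.77 with Bptf (0.75). Over the 17 Pank2 came first for Lrg1 (0.81). B3galt5, a galactosyltransferase, came second for Lrg1 over the 18 libraries (0.72). The highest of over 11138 values is high by selection, and these are listed as likeness of pattern and nothing more.

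Genes upstream and downstream of the 10 were taken from lists of signalling and effector genes. Of these lists 0 genes were called in any comparison. The list of IL-22 and IL-6 signalling to STAT3 had 14 tested genes, of which 10 were positive between pregnant and virgin libraries (median 0.22), 7 between pseudopregnant and virgin (0.08, and 0.10 without pseudopregnant replicate 4) and 6 between pregnant and pseudopregnant (-0.06, and 0.04 without it, a change of sign). That of IL-17, IL-1, TNF and ALPK1 signalling to NF-kB had 24, with 15 (median 0.04), 14 (0.09, and 0.03 without that replicate) and 13 (0.03 both ways) positive. That of acute phase and secreted antimicrobial genes had 8, with 3 (-0.19), 5 (0.27, and 0.15 without pseudopregnant replicate 4) and 0 (-0.53, and -0.29 without it) positive.

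The complement and lectin list had 6, with 5 positive each time (medians 0.37, 0.52 and 0.10, the second 0.27 without that replicate). That of NADPH oxidases, peroxidases and nitric oxide had 14, with 5 (-0.07), 6 (-0.04) and 9 (0.04) positive, and that of alpha-2-macroglobulin relatives and protease inhibitors 3, with 1 (-0.02), 2 (0.02) and 1 (-0.04) positive. Over all tested genes 48.5%, 50.6% and 48.4% were positive, with medians within 0.01 of 0.

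In pseudopregnant replicate 4, several of these genes stood above every other library. Socs3, the feedback inhibitor that STAT3 induces, was at 136 CPM there and at 16.8 to 51.7 CPM in the other 17 libraries. Tifa, the adaptor of Alpk1, was at 180.1 CPM against 30.2 to 93.3 CPM, and Stat3 itself at 142 against 67.4 to 127 CPM. Reg3b was at 20139.5 against 1873 to 15522 CPM, and Reg3g at 11147 against 934 to 4888 CPM.

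Duox1, the neighbouring dual oxidase gene, was at 4.75 CPM in that replicate against 0.322 to 2.45 CPM in the other 17. The acute phase gene Saa3 was at 0.666 against 0.0290 to 0.593 CPM. Lcn2, which binds bacterial siderophores and was below the filter, was at 0.956 against 0 to 0.253 CPM. Traf6, the partner of Tifa, was at 27.4 against 13.1 to 27.2 CPM and the peroxidase Gpx2 at 826 against 254 to 806 CPM, both just above the rest.

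Other genes of the lists were not highest there. Il22ra1 was at 35.7 CPM, rank 4, and highest in pseudopregnant replicate 5 at 51.9 CPM. Nfkbiz (75.5 CPM) ranked 3, Nox1 (1.48 CPM) ranked 2, Pim1 (91.9 CPM) and Pigr, the immunoglobulin transporter (2479 CPM), ranked 6 and 7 of the 18. Jak2 (104 CPM) and Cfb (17.5 CPM) ranked 7. Nfkbia (124 CPM) ranked 11, Tnfrsf1a (109 CPM) ranked 9 and Il17rc (166 CPM) ranked 17.

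The same library was at least 2 times the median of the other 17 in 4.47% of all tested genes. Of the acute phase list this held for 4 of 8 (Saa3, Reg3b, Reg3g and Ltf) and of the STAT3 list for 3 of 14 (Il22ra1, Il6st and Socs3). Of the complement list it held for 3 of 6 (C3, C4b and Cfi), of the oxidase list for 2 of 14 (Duox1 and Nox1), of the NF-kB list for 1 of 24 (Tifa) and of the protease inhibitor list for 0 of 3. Ltf, Il6st, C3, C4b and Cfi are named because they made up these counts, and their values were 1.65, 27.3, 4.89, 2.14 and 5.53 CPM. Ltf, C4b and Cfi were highest in this library. The mannose-binding lectin Mbl1 and the macroglobulin A2m were at 0 counts in all 18 libraries, which allows up to 0.0805 to 0.120 CPM depending on the library. Masp1 and Masp2, the proteases that Mbl2 acts through, had at most 5 and 2 counts.

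**Figure D5:**
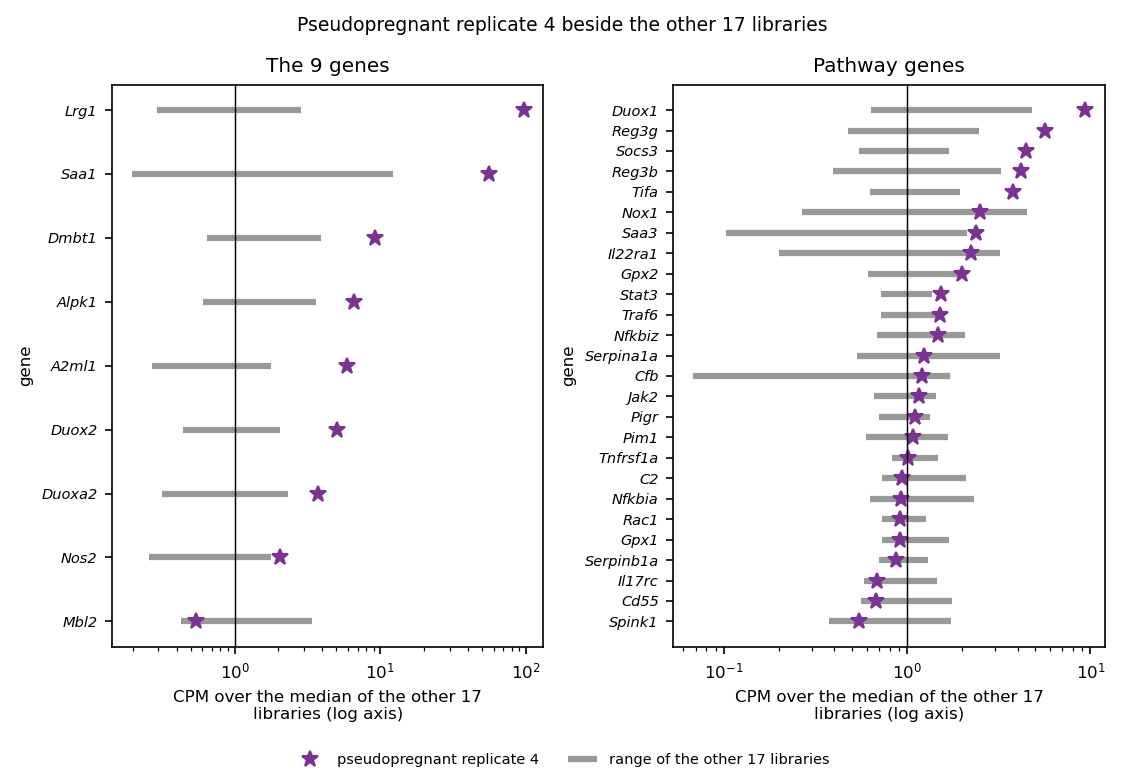
Level of pseudopregnant replicate 4 (star) and the range of the other 17 libraries (grey bar), both as the ratio of CPM to the median of those 17 on a log axis, for 9 of the 10 genes (left) and for pathway genes above the filter that were set by name or by the highest mean CPM of their list (right), which leaves out Ltf, Il6st, C3, C4b and Cfi. Stars lie right of the grey bar for 8 genes on the left, and on the right for Duox1, Reg3g, Socs3, Reg3b, Tifa, Saa3, Stat3 and, barely, Gpx2 and Traf6.

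Markers of other cells were summed in each library. In these bulk samples fewer cells of a type and less RNA per cell cannot be told apart. In pseudopregnant replicate 4 the 8 neutrophil markers, none of them past the filter, summed to 0.0579 CPM, against 0 to 0.321 CPM in the other 17 libraries, and Ly6g was at 0. The 10 macrophage and leukocyte markers summed to 31.8 CPM, rank 11 of 18, against 21.2 to 49.1 CPM. Hepatocyte markers (6 genes, 2.55 CPM, rank 17) and those of stroma and vessel (6 genes, 5.04 CPM, rank 15) were also inside the range of the others. So were those of B and plasma cells (6 genes, 0.695 CPM, rank 6) and T and innate lymphoid cells (10 genes, 41.9 CPM, rank 9). Of the last list 2 genes were past the filter, and 1 of them, Gzma, was at least 2 times the median of the other 17. Cd3e, a T cell gene of that list, ran from 0 to 0.319 CPM and was highest in this library. Il22 and Il17a, the cytokines that T and innate lymphoid cells make, were at 0 in all 18 libraries.

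By group, macrophage and leukocyte markers summed to 21.5 to 49.1 CPM in pregnant, 26.6 to 39.4 CPM in pseudopregnant and 21.2 to 46.4 CPM in virgin libraries. T and innate lymphoid markers summed to 34.9 to 55.5 CPM in pregnant, 40.3 to 60.6 CPM in pseudopregnant and 33.0 to 56.2 CPM in virgin libraries. Neutrophil markers reached at most 0.321 CPM in pregnant, 0.285 CPM in pseudopregnant and 0.243 CPM in virgin libraries, and Mpo was at 0 throughout. The groups overlapped in each of these sums. Absorptive enterocyte markers summed to 26142 to 53642 CPM in pregnant, 20343 to 46052.0 CPM in pseudopregnant and 20927 to 54925 CPM in virgin libraries. Proliferation markers summed to 284 to 519 CPM in pregnant, 335 to 622 CPM in pseudopregnant and 308 to 567 CPM in virgin libraries, and here too the groups overlapped.

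Epithelial markers in pseudopregnant replicate 4 were near the ends of their ranges. The 10 absorptive enterocyte markers summed to 20419 CPM, rank 17 of 18, against 20343 to 54925 CPM, and the 6 general epithelial markers to 10439 CPM, also rank 17. The 10 proliferation genes summed to 609.8 CPM, rank 3, against 284 to 622 CPM. Of these 10, 3 were highest in this library, and Mki67 was at least 2 times the median of the other 17. Paneth (10535 CPM, rank 12), goblet (7192 CPM, rank 8) and dissociation stress markers (2531 CPM, rank 15) were within the others. The part of the enterocyte and proliferation levels in the peaks of the 9 genes was not tested.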

How the data were processed

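RNA had been sequenced from 18 libraries, 6 per group. The authors deposited raw counts of reads for each Ensembl gene. For these steps the submitters' processing notes list the build GRCm38 and the tools HISAT2 2.0.4, Subread 2.0.0 with featureCounts, FastQC 0.11.5 and DESeq2 1.24.0, but the strand setting, annotation release and read length stay unknown. Per the labels' protocols, libraries were made with a directional kit after poly(A) enrichment. Symbols came from GENCODE M21 for 47224 of 47729 genes. Genes without a symbol made up no more than 0.0663% of any library. No library was a duplicate of another in its group: over 45 replicate pairs, chi-square divided by its degrees of freedom was 32.5 to 416. Pairs of libraries from different groups were not compared.

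The sample titles gave group and replicate. A quasi-likelihood model was fitted with edgeR 4.0.16 under R 4.3.3 (legacy = FALSE, 1 mean per group, all 18 libraries) after filterByExpr and TMM scaling, tested on simulated data. These simulated counts held no outlying library, so they cannot show how the test fares with one. SE is the fold change divided by the square root of F. CPM are TMM-scaled, except in the limits from 3 counts. Since replicates are not stated to be separate animals, p-values reflect only the spread among these libraries, which may be technical. All 10 genes are named in each comparison. Of each pathway list the 3 genes of highest mean CPM and partners fixed by name are given values where they bear on the peak library. Genes and lists were chosen with earlier results of these data known. The alternatives were DESeq2 1.42.0, limma-voom (limma 3.58.1), DESeq2 size factors, other filters, a replicate block, only 12 libraries, and each library left out. Promoters are from RefSeq.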

Additional observations from a re-analysis of the deposited data

Results flagged for a closer look

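In groups of 6, a library stood apart from the other 5 by Dixon's gap ratio at its 95% critical value in 8 cases. Chance alone does so in about 1 of 20 groups, and over all tested genes 8.23% of pregnant, 4.91% of pseudopregnant and 9.72% of virgin groups did. The 10 genes were picked for such peaks, so the number of cases is no finding.

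Pseudopregnant replicate 4 gave 6 of the cases: Saa1 at 243 CPM (0.854 to 52.7 in the other 5), Saa2 at 1.16 CPM (0 to 0.0726), Lrg1 at 19.3 CPM (0.182 to 0.572), Duox2 at 657 CPM (99.9 to 267), Duoxa2 at 170.4 CPM (14.4 to 54.4) and A2ml1 at 2.52 CPM (0.598 to 0.759). Dmbt1 and Alpk1 were not among them, because replicate 5 was high as well. The remaining cases were Mbl2 in pseudopregnant replicate 3, at 4.54 CPM (1.31 to 2.51 in the other 5), and Duoxa2 in pregnant replicate 1, at 105 CPM (23.5 to 51.5). Virgin libraries gave 0 cases in the 10 genes.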

How the results depend on the processing

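The count of 0 called genes held in every setting for pseudopregnant against virgin and for pregnant against pseudopregnant libraries. For pregnant against virgin DESeq2 called 5 (Bco1, Cyp3a44, Gm42427, Mbl2 and Slc31a1) and the replicate block 1 (Gm42427), and leaving out 1 library gave 0 to 1 (Gm42427, without pseudopregnant replicate 1). DESeq2 gave no p for Lrg1. Fold changes of the 9 tested genes moved by less than 1 SD between replicates in 222 of 222, 220 of 222 and 220 of 222 values of the comparisons pregnant against virgin, pseudopregnant against virgin and pregnant against pseudopregnant. The exceptions were Lrg1 without pseudopregnant replicate 4, as given above, and Lrg1 in limma-voom, at 2.16 for pseudopregnant against virgin and -1.73 for pregnant against pseudopregnant libraries. These shares are a weak check, since leaving out a library of the group not compared hardly moves a fold change. They also count Saa1 for pseudopregnant against virgin libraries as within 1 SD, at 3.41 and at 1.63 without pseudopregnant replicate 4. Within 1 SD, but by over 1.5 times, Saa1 also moved for pseudopregnant against virgin, to 1.70 with the replicate block and 1.86 in limma-voom, and for pregnant against pseudopregnant, to -1.82 and -1.40. Lrg1 stood at 2.94 and -2.51 with the block in these comparisons. The cause was not tested. The sign turned for Saa1 with the replicate block (-0.12, pregnant against virgin). It also turned for Duoxa2 between pregnant and virgin libraries with the block (-0.06), without pregnant replicate 1 (-0.25) or without virgin replicate 1 (-0.02) or 4 (-0.01), and for Duoxa2 without pseudopregnant replicate 4 as given above. Fold changes of Saa1 between pregnant and virgin ranged from -0.12 to 1.04, and those of Mbl2 from 1.26 (without pregnant replicate 4) to 1.70. Between pseudopregnant and virgin libraries Mbl2 stood at 0.12 without pseudopregnant replicate 3. Whether the replicate numbers pair the libraries is not stated and was not settled. Correlations of same-numbered deviations ran from -0.48 to 0.66. Of 6 libraries, 1 (pregnant with virgin), 2 (pseudopregnant with virgin) and 3 (pregnant with pseudopregnant) were most alike to the one of their own number. Under the block 979, 1988 and 618 genes had an unadjusted p under 0.05, against 540, 1375 and 345 without it. Low counts limit Saa2, Lrg1 and A2ml1.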

Other observations

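Over all tested genes, 69 had a highest library of at least 2 times the second highest, and 39 of these had it in pseudopregnant replicate 4. Of the 39, 5 are among the genes followed here (Dmbt1, Duox2, Saa1, Lrg1 and A2ml1). Of the 34 others, Reg3g and Socs3 were partners fixed by name and are given above. The rest were looked up after their values were seen. Enzymes of surface glycosylation were among them: Fut2, which adds fucose to surface glycans, stood at 61.3 CPM there and at most at 2.30 CPM in the other 17 libraries, B3galt5 at 77.2 against at most 12.7 CPM, B3gnt7 at 75.3 against 25.4 CPM and the sulfotransferase Chst4 at 55.8 against 11.2 CPM. The amino acid transporter Slc6a14 was at 5.56 against at most 0.944 CPM, the secreted phospholipase Pla2g5 at 22.5 against 4.47 CPM, Tat at 33.2 against 6.45 CPM, hexokinase Hk2 at 88.1 against 35.5 CPM and the membrane protein Stom at 313 against 134 CPM. The antiviral genes Mx1 (12.7 against 6.35 CPM) and Oas2 (5.13 against 1.97 CPM) were also in this set. With 1 library there is no replicate of this pattern.

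The library that was highest for most genes was another one. Pseudopregnant replicate 5 was highest for 16.9% of the tested genes, virgin replicate 2 for 14.7%, pregnant replicate 1 for 10.4% and pseudopregnant replicate 4 for 8.55%.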
